A study of Mus musculus with 9 samples.

Results

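The sites described here were already accessible in control mouse embryonic stem cells and became strongly more accessible after the ERK pathway was switched on. They were selected on measured values, as the entries of the authors' deposited table of changed ATAC-seq sites with a control level of at least 6 and a change of at least 1.5, both on the log2 scale. A level of 6 is 64 normalized reads per site, and a change of 1.5 is 2.83-fold. The rule found 569 sites among 19165 listed, or 2.97%. The level and the change of these sites are therefore descriptions of the selection and were not tested. Their position, width, company and nearest genes were no part of the rule. Width is not independent of it, however, because levels are reads per site and wider sites had higher control levels.

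The cells were E14tg2a embryonic stem cells of 129SV origin that carry cRAF-ErT2, in which the kinase RAF is joined to a receptor domain that binds 4-hydroxytamoxifen (4OHT) and so becomes active when 4OHT is added. All 9 libraries came from cells grown in serum and LIF with 2 µM Chir99021, a GSK3 inhibitor, and then kept for 24 h in serum and LIF with 250 nM PD173074, an FGF receptor inhibitor, so the controls carried the fusion and the inhibitor as well. In 3 libraries no 4OHT was given (0 h), in 3 it was given at 250 nM for 1 h and in 3 for 2 h. The levels in the table after 4OHT fitted a pool of the 6 libraries of both times, so 1 h and 2 h could not be set apart. No vehicle or fusion-free libraries were used here, so an action of 4OHT itself and that of the kinase cannot be told apart.

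In ATAC-seq, a transposase cuts open chromatin and the read count over a site measures its accessibility. RAF activates MEK, MEK activates ERK, and ERK phosphorylates transcription factors of the ETS and AP-1 families that bind promoters and distal enhancers. The first genes to respond are immediate early genes such as Egr1, and feedback inhibitors such as the Sprouty and DUSP proteins then restrain the cascade. In embryonic stem cells, FGF-ERK signalling moves cells out of naive pluripotency and towards primitive endoderm.

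Like most listed sites, the 569 sites lay mainly away from gene starts. Of 32851 promoter windows of RefSeq (GRCm38.p6), each running from 250 bases before to 50 bases after an annotated start, 15 were overlapped by 15 of the sites, and 9 of the 15 belonged to protein-coding genes. The windows covered 79.9% of protein-coding genes, and none was used for Egr1, Spry4 or Arc. Overlaps with starts that lack a window could not be counted, so 15 is a lower limit. The 4 protein-coding windows that a site covered in full and whose sites had the smallest FDR are printed 5′ to 3′ on the strand of the gene, because they are the sequence that gained access. Capitals mark matches, on either strand, to the 7 motifs searched, which were AP-1 (TGANTCA), CRE (TGACGTCA), ETS (CCGGAAG), the CArG box, EGR (GCGNGGGCG), the GC box (GGGCGG) and the E-box (CACGTG). Trpv3, which encodes a heat-sensitive cation channel, has its window at chr11:73267270-73267569 on the plus strand, with an AP-1 match followed by an E-box. Gsg1, a germ cell gene, has its window at chr6:135254287-135254586 on the minus strand, with a GC box. The window of Ypel4 lies at chr2:84733954-84734253 on the plus strand, and that of Smim14 at chr5:65484012-65484311 on the minus strand, each with 1 AP-1 match.
Trpv3: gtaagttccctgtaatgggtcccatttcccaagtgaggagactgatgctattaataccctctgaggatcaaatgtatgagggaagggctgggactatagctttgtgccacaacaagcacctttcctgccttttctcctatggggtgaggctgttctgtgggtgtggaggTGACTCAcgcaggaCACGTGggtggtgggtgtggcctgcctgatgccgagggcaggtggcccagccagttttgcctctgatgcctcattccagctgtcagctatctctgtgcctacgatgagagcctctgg
Gsg1: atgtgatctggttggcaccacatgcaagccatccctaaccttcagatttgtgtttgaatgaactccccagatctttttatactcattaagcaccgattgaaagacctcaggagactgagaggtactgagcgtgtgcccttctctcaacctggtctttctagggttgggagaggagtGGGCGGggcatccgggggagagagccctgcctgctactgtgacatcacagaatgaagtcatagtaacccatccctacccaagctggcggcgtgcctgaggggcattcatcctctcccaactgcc
Ypel4: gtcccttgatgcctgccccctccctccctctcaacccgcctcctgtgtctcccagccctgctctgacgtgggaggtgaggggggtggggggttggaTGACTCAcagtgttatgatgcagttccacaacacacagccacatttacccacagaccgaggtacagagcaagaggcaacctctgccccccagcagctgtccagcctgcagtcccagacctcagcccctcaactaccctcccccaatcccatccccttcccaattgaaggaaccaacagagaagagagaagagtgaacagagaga
Smim14: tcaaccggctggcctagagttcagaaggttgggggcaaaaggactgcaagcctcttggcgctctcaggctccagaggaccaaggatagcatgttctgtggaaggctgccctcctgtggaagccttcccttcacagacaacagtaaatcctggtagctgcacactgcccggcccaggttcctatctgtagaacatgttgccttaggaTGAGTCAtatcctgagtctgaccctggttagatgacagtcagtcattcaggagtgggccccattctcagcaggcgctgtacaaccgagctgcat

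In the authors' deposited table, the site over the Trpv3 start rose from a control level of 6.42 to 9.14 after 4OHT, the site over Gsg1 from 6.14 to 8.21, the site over Ypel4 from 6.55 to 8.28 and the site over Smim14 from 7.35 to 8.95. The AP-1 letters, to which FOS and JUN dimers bind, stood in 6 of the 15 overlapped windows (40.0%, exact 95% interval 16.3 to 67.7), and each of the 6 had a match inside the accessible site itself. They stood in 7.81% of all 32851 windows. By group, they stood in 33 of 48 windows overlapped by sites that gained as strongly from a control level under 6 (68.8%, 53.8 to 81.3). They stood in 51 of 381 windows overlapped by open sites with a smaller gain (13.39%, 10.1 to 17.2) and in 9 of 119 overlapped by open sites that fell (7.56%, 3.52 to 13.9). The estimate for the 15 windows lay between those for strong gains from a low level and for smaller gains, and its wide interval overlapped both of theirs.

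The shares of the other motifs in the 15 windows rest on few matches. The GC box stood in 5 (33.3%) against 35.7% of all windows, ETS letters in 1 (6.67%) against 8.86%, EGR letters in 1 against 5.55% and the E-box in 1 against 7.15%. CRE and CArG box letters were in none of the 15, against 1.79% and 1.63% of all windows. The overlapped windows held a median of 4 CpG dinucleotides, the same as in windows overlapped by low strong gains, against 3 for open sites that fell, 16 for open sites with a smaller gain and 7 over all windows. A match is a run of letters and says nothing about binding, and letters absent from a window may lie elsewhere in the site.

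The word open needs a scale. The median control level of the 569 sites was 6.63 (quartiles 6.26 and 7.05), or 99.04 normalized reads, which exceeded the control level of 45.8% of listed sites. The median over all listed sites was 6.84, so before 4OHT these sites were of middling level among the listed sites. Levels of sites that were tested but not listed are unknown, so their rank among all accessible sites was not measured. Open sites with a smaller gain started from a median of 7.59 and open sites that fell from 7.97, while strong gains below the level minimum started from 4.25. After 4OHT the median of the 569 was 8.51, or 364.6 normalized reads, above 82.2% of listed sites. All of these are means over libraries from the authors' deposited table, which gives no value per library and so no spread between replicates.

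**Figure D1:**
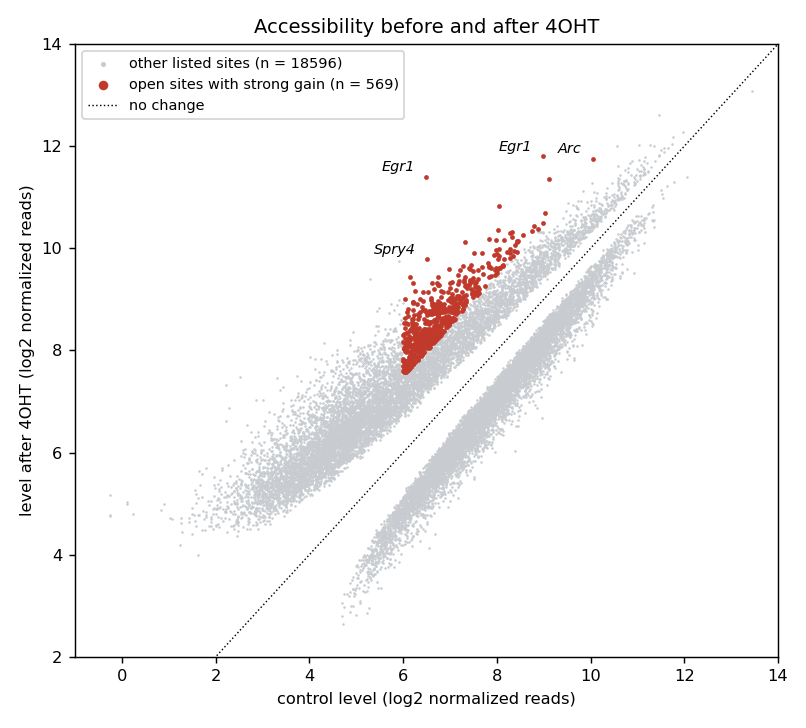
Each point is 1 of 19165 listed sites, placed by its mean control level (x axis) and its mean level after 4OHT (y axis), both in log2 normalized reads, with the 569 open sites with strong gain in red and a dotted line at no change. The red sites fill a corner set by the rule, most of them near its lower left edge, and the Egr1, Spry4 and Arc sites stand out from it.

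Most of the sites sat near the limits of the rule. A control level between 6 and 7 was found for 411 sites (72.2%), between 7 and 8 for 120 and between 8 and 9 for 35, and 3 started at 9 or above. As a share of everything listed at the same control level, they made up 12.3% from 6 to 7, 3.42% from 7 to 8, 1.17% from 8 to 9 and 0.117% from 9 up. The change lay between 1.5 and 2 for 422 sites (74.2%), with a median of 1.77 (3.41-fold) and a maximum of 4.92. A change of exactly 1.5 in the rounded table was found for 16 sites. The Kit site (6.71 to 8.21) and the Pfn2 site (6.87 to 8.37) were just inside at 1.5, and the Capn8 site (6.84 to 8.33) and the Phf14 site (7.21 to 8.70) just outside at 1.49. On the level, the Brd2 and Vav2 sites entered at 6, and the Ankrd11 site, which rose by 1.76, missed at 5.99.

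The background bears on every count that follows. Working back from its p and FDR values, the authors' deposited table holds 19165 of about 243800 sites tested, so 7.86% passed its FDR limit of 0.01. Of the listed sites 52.6% were higher after 4OHT, and 51.1% of those outside the rule were. A change of 1.5 or more was listed for 25.1%, and the 569 sites were 11.8% of those 4815 strong gains. They were 4.59% of the 12398 listed sites with a control level of at least 6, of which 31.9% were higher in all.

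The largest gain was at Egr1, an immediate early gene that encodes a zinc finger transcription factor. In the authors' deposited table, the site at chr18:34864933-34865884, whose centre lay 452 bp outside the gene, rose from 6.48 to 11.40 (FDR 2.15e-103). This was a 30.3-fold change in mean normalized reads, from 89.3 to 2702. The neighbouring site at chr18:34862190-34864149, inside the gene, rose from 8.99 to 11.80 (FDR 4.28e-37). These were the smallest FDR values among the 569 sites.

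Spry4, a Sprouty inhibitor of receptor tyrosine kinase signalling, held 4 of the sites within 12831 bp, more than any other gene. In the authors' deposited table they rose from 6.51 to 9.79 (FDR 4.37e-26), from 6.27 to 8.52, from 9.12 to 11.35 and from 6.84 to 8.87. The site that started at 9.12 was 2394 bp wide, the widest of all 569, and its centre lay 1272 bp outside the gene, while the other 3 lay inside it. All 7 other listed sites nearest to Spry4 were higher too.

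Members of a list of ERK feedback and FGF target genes were nearest to 11 of the sites, 16.2% of the 68 listed sites at these genes, against 3.20% of the 16454 listed sites within 100 kb of a protein-coding gene. Without Spry4 the count was 7 of 57 (12.3%). The lists were drawn up with results of these data known, so the counts are descriptions. Besides Spry4 the authors' deposited table gives 3 sites nearest to Phlda1, a pleckstrin homology domain gene induced by growth factors. Their changes were 2.63, 2.03 and 2.02, and their centres lay 35465, 75267 and 859 bp from the gene, respectively. Single sites stood at Etv4, an ETS factor induced by FGF signalling (6.17 to 7.81), and at Spry2, the Sprouty relative of Spry4 (8.55 to 10.25, 26069 bp before the gene). The phosphatase genes Dusp2 (6 to 8.31) and Dusp5 (6.75 to 8.47), whose products dephosphorylate MAP kinases, had sites 12081 and 21495 bp before the gene, respectively.

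Immediate early genes were nearest to 6 sites, 11.1% of their 54 listed sites, and to 4 of 51 (7.84%) without Egr1. Arc, known as an activity-induced gene of neurons, held the site with the highest control level of all, 10.05, which rose to 11.75 (FDR 4.95e-14) in the authors' deposited table. Its 2391 bp at chr15:74670575-74672965 made it nearly as wide as the Spry4 site. The zinc finger factor gene Klf6 had a site 2257 bp downstream of its start (6.63 to 8.29), and the AP-1 genes Fosl2 (6.21 to 8.51) and Jun (6.80 to 8.56) had distal sites, 34430 and 53295 bp outside the genes.

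At the other lists the counts were 0 to 2, too few to be read against the 3.20% of all listed sites near genes. Of 44 listed sites at RAS-MAPK cascade and receptor genes, 2 met the rule (4.55%), at the MEK1 gene Map2k1 (6.64 to 8.80, FDR 6.38e-10) and at the adaptor gene Grb2 (6.53 to 8.13) in the authors' deposited table. Among SRF target genes of the cytoskeleton 1 of 26 did, at the LIM domain gene Fhl2 (6.23 to 7.78), 87945 bp away. Among primitive endoderm genes 2 of 26 did, at the matrix protein gene Sparc (6.35 to 8.76) and the endocytic receptor gene Cubn (8.42 to 10.12). Among trophectoderm genes 2 of 20 did, nearest to the transcription factor genes Tead4 and Tfap2c. The first was inside Tead4 (6.31 to 7.96) and the second 85552 bp from Tfap2c (8.75 to 10.34).

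No site met the rule at the other 9 lists, most of which have too few listed sites for a share of 3.20% to give even 1. These were naive pluripotency genes, with 60 listed sites of which 23 were higher, general pluripotency genes with 15, epiblast genes with 11, mesendoderm genes with 16 and neural genes with 13. Wnt target genes had 25 listed sites, fibroblast genes 16, estrogen-responsive genes 10 and genes of the two-cell state 2. In all, 24 of the 569 sites (4.22%) were nearest to a gene on any list, so the lists leave most of these sites unnamed. The same share over all listed sites was not worked out, so 4.22% cannot be read as high or low. The cell type could not be checked from markers, because the table lists changed sites alone and so does not show whether a marker gene is accessible. Listed sites stood at 7 of 8 stem cell markers, with a highest control level per gene of 5.86 (Sox2) to 10.78 (Esrrb), and at 2 of 7 fibroblast markers, Col1a1 at 5.96 and Postn at 6.13. No marker of either kind had a site that met the rule.

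**Figure D2:**
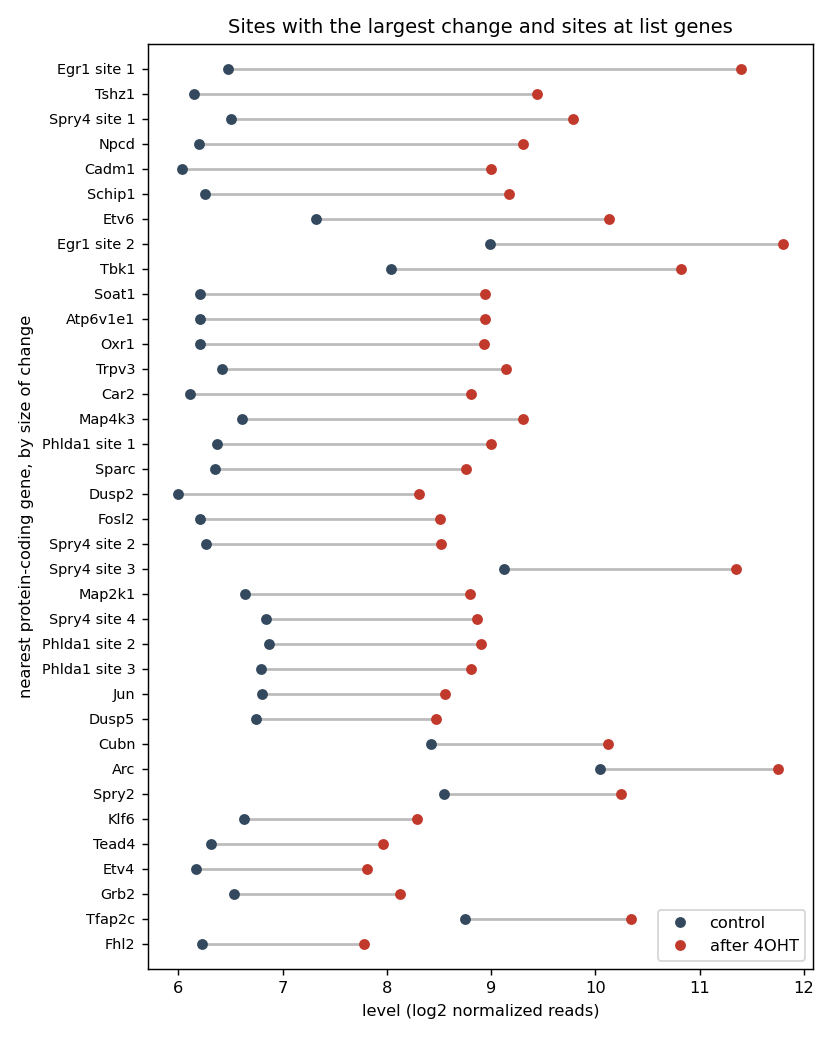
Mean control level (dark points) and mean level after 4OHT (red points), in log2 normalized reads, for the 15 sites with the largest change and the 24 sites at list genes, named by the nearest protein-coding gene and ordered by change, with sites in both sets drawn once. The levels come from the authors' deposited table without replicate values. The Egr1 bar is the longest, from 6.48 to 11.40, while the Arc and Spry4 sites reach like levels from higher starts.

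Outside the lists, several of the largest changes were nearest to genes of other kinds. In the authors' deposited table, a site 116168 bp from the zinc finger homeobox gene Tshz1 rose from 6.15 to 9.44, one inside Npcd from 6.2 to 9.31 and one 84702 bp from the cell adhesion gene Cadm1 from 6.04 to 9. Sites inside Schip1 (6.26 to 9.17) and inside the ETS repressor gene Etv6 (7.32 to 10.13) followed. Of the remaining sites among the 15 largest changes, some lay inside genes. These were Soat1, an enzyme of cholesterol esterification, and Atp6v1e1, a subunit of the proton pump of endosomes (both 6.21 to 8.94), Oxr1 (6.21 to 8.93) and Trpv3. The others lay outside their nearest gene, 25284 bp from Tbk1, an innate immune kinase (8.04 to 10.82), 47414 bp from Car2 and 69868 bp from Map4k3.

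A large change did not always come with a small FDR. Among the 30 sites with a change of 2.5 or more, 17 had an FDR above 1e-04 and 5 had one of at most 1e-10, the Tshz1 site standing at 2.87e-04 and the Npcd site at 4.71e-04. Some of the smallest FDR values went with changes well below the largest in the authors' deposited table, as at the ubiquitin ligase gene Kcmf1 (7.97 to 9.48, FDR 1.14e-15), Lrrc28 (8.28 to 9.98, 3.15e-15) and the histone deacetylase gene Hdac4 (7.99 to 10.16, 6.55e-15). Others were at the junction protein gene Jup (6.54 to 8.41, 1.22e-14) and the actin-binding protein gene Tmsb4x (7.60 to 9.58, 1.05e-13). Over all 569 sites the FDR was at most 1e-10 for 29, and between 0.001 and 0.01 for 112. Without values per library, the spread behind a given FDR was not tested.

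The sites were mainly inside genes and away from gene ends. The centre of 335 sites (58.9%, exact 95% interval 54.7 to 63.0) lay inside an annotated gene of any kind and more than 1 kb from either end of any gene. Of the others, 52 (9.14%, 6.90 to 11.8) lay within 1 kb of a gene end, of the host gene or another, and 182 (32.0%, 28.2 to 36.0) lay outside genes. Open sites with a smaller gain lay within 1 kb of a gene end more often (16.03%, 14.8 to 17.3), and open sites that fell did so less often (6.17%, 5.66 to 6.70), the intervals not touching those of the 569 sites. The share for strong gains from a low level was 6.85% (6.11 to 7.66), whose interval met that of the 569, and that over all listed sites was 8.24%. These intervals reflect counting error alone, as if each site were independent, which neighbouring sites are not.

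Within steps of the control level, the intervals of strong and smaller gains overlapped. From 6 to 7, 9.73% of the 411 sites with strong gain and 8.62% of the 1114 with a smaller gain lay within 1 kb of a gene end. From 7 to 8 the shares were 8.33% of 120 and 11.5% of 937, and from 8 to 9 they were 1 of 35 (2.86%) and 13.7% of 710. The intervals of the 569 sites were wide in the upper bins (4.07 to 14.8% and 0.0723 to 14.9%), so the shares within a step were not resolved at these numbers.

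Gene-poor regions held few of the sites. More than 100 kb from any protein-coding gene lay 42 sites (7.38%, 5.37 to 9.85), against 6.68% of open sites with a smaller gain, 14.3% of strong gains from a low level, 17.2% of open sites that fell and 14.1% of all listed sites. Inside a protein-coding gene lay 329 (57.8%, 53.6 to 61.9), against 58.6%, 49.3%, 43.7% and 49.2% in the same order. The intervals of the 569 sites held the values of smaller gains on both measures and none of the values of the other groups just named. Of all listed sites that were higher, which include the 569, 54.6% lay inside a protein-coding gene, a value within the interval. More than 100 kb away lay 10.8% of them, a value above it. The median length of the host gene was 70781 bp, near the 67956.5 bp of smaller gains and below the 106555 bp of low strong gains and the 132294 bp of sites that fell. Of 249 sites inside a gene of known strand, 63 (25.3%, 20.02 to 31.2) were in the first 25% of its length, near the 25.6% of low strong gains, the 27.2% of sites that fell and the 27.7% of all listed sites, and below the 34.2% (31.9 to 36.6) of smaller gains. Smaller gains started from a higher median control level (7.59 against 6.63), and these shares were not split by level.

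**Figure D3:**
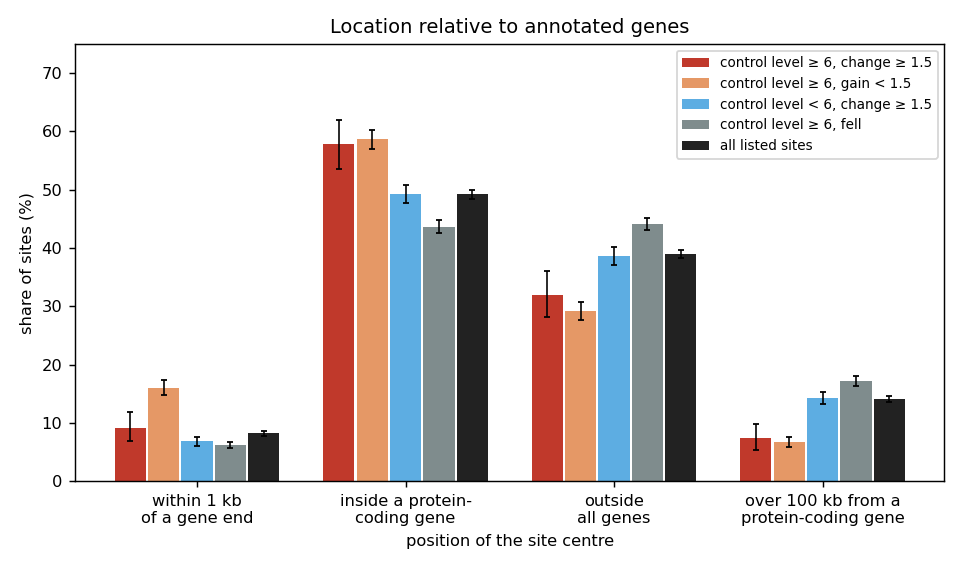
Share of sites, in percent, by the position of the site centre, for the 569 open sites with strong gain (red), the 3 groups they were compared with and all listed sites (black); a site can count in more than 1 category. Lines are exact 95% binomial intervals, and the red bars stand below those of smaller gains near gene ends (9.14 and 16.03%) and below those of falling sites far from genes (7.38 and 17.2%).

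Distance to an annotated gene start could be measured for the 544 sites on chromosomes with start annotation used here. Starts were available for 79.9% of protein-coding genes. A site at any other gene was measured to the start of a different gene, so the distances are upper limits. Within 1 kb of a start lay 25 (4.60%, 3.00 to 6.71), against 3.82% of all listed sites, 10.9% of smaller gains, 2.54% of low strong gains and 1.98% of open sites that fell. Shares near starts were not split by control level, in which the groups differ. Another 134 lay 1 to 10 kb away, 323 (59.4%) lay 10 to 100 kb away and 62 lay farther. The 62 include the Arc site, which lay inside Arc and 800 bp from a gene end, because no start of Arc was available. The median distance was 19946.5 bp, against 16727 bp for open sites with a smaller gain, 26201 bp for low strong gains and 30024 bp for open sites that fell. The centre of the Trpv3 site lay 53 bp from the annotated start of its gene. By chromosome, 4 held the most with 49, followed by 11 with 48 and 5 with 41, and the share of a chromosome's listed sites was highest on 11 at 4.34%. The X chromosome held 8 (1.41%, 0.609 to 2.75), against 1.60% of open sites with a smaller gain and 2.46% of all listed sites, both within the interval.

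The sites were wide for their control level. Their median width was 649 bp (quartiles 502 and 798, range 171 to 2394), against 474 bp over all listed sites, 302 bp for low strong gains, 673 bp for open sites with a smaller gain and 588 bp for open sites that fell. Under 300 bp were 28 (4.92%), against 25% of all listed sites and 49.4% of low strong gains, and 50 (8.79%) were over 1000 bp. The level minimum of the rule bears on the contrasts with all listed sites and low strong gains, because width rose with control level among open sites. At a control level of 6 to 7 the median was 622 bp, against 499 bp for smaller gains and 333 bp for sites that fell. From 7 to 8 the medians were 725.5, 640 and 498 bp, and from 8 to 9 they were 889, 790 and 709 bp. When sites were matched on the mean level over all libraries instead, the order did not hold, with 586, 524 and 618 bp at a mean level of 7 to 8 and 664.5, 684 and 803 bp from 8 to 9. The order of widths thus depended on which level was matched.

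**Figure D4:**
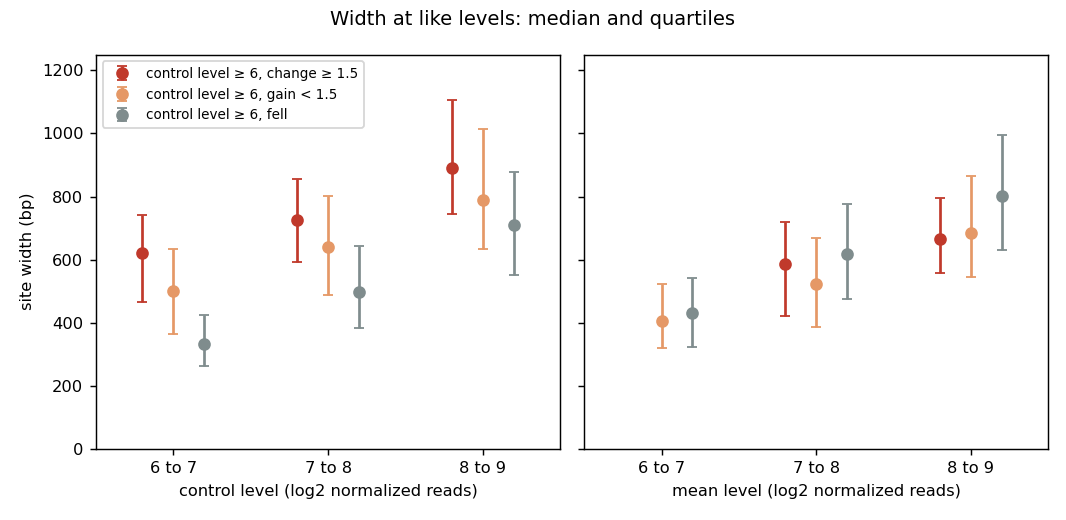
Site width in bp as the median (point) and quartiles (lines) for open sites with strong gain (red), open sites with a smaller gain (orange) and open sites that fell (grey), within steps of the control level (left) and of the mean level over all libraries (right), both in log2 normalized reads. On the left red is highest at each step, 622 bp at a control level of 6 to 7, and on the right grey is highest; no red site has a mean level under 7.

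The sites rarely stood next to each other. Within 10 kb of another lay 26 (4.57%, 3.01 to 6.62), and within 100 kb 99 (17.4%). The other groups hold more sites and so more chances of a neighbour, so their shares are no measure against this. Joined at 50 kb, the 569 sites formed 533 groups, of which 502 were single sites, 27 were pairs, 3 were triples and 1 held 4. The group of 4 was at Spry4. The triples were nearest to Baiap2, a regulator of the actin cytoskeleton (25033 bp), the receptor phosphatase gene Ptprs (15912 bp) and Phlda1 (75204 bp).

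Other listed sites nearby mostly moved the same way. Within 10 kb of the 569 sites stood 244 listed sites outside the rule, of which 205 (84.0%, 78.8 to 88.4) were higher after 4OHT, against 51.1% of all 18596 listed sites outside the rule. Split by control level, of those at 6 or more, 105 of 144 (72.9%, 64.9 to 80.0) were higher, against 28.6% of all others at that level, and of those under 6 all 100 were, against 90.6%. A listed site outside the rule within 10 kb was found for 176 of the 569 sites (30.9%). The median change of the higher neighbours was 1.18.

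The share was highest close by. It was 86.8% up to 2 kb, 84.3% from 2 to 5 kb and 82.4% from 5 to 10 kb, then 71.9% from 10 to 20 kb and 62.3% from 20 to 50 kb. It was 63.2% from 50 to 100 kb, 60.9% from 100 to 200 kb and 49.01% beyond. For neighbours with a control level of at least 6 it went from 77.4% up to 2 kb to 42.4% from 20 to 50 kb, 43.2% from 50 to 100 kb and 26.2% beyond 200 kb. For those under 6 it was 100% up to 10 kb, between 94.6 and 96.5% from 10 to 200 kb and 89.6% beyond.

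**Figure D5:**
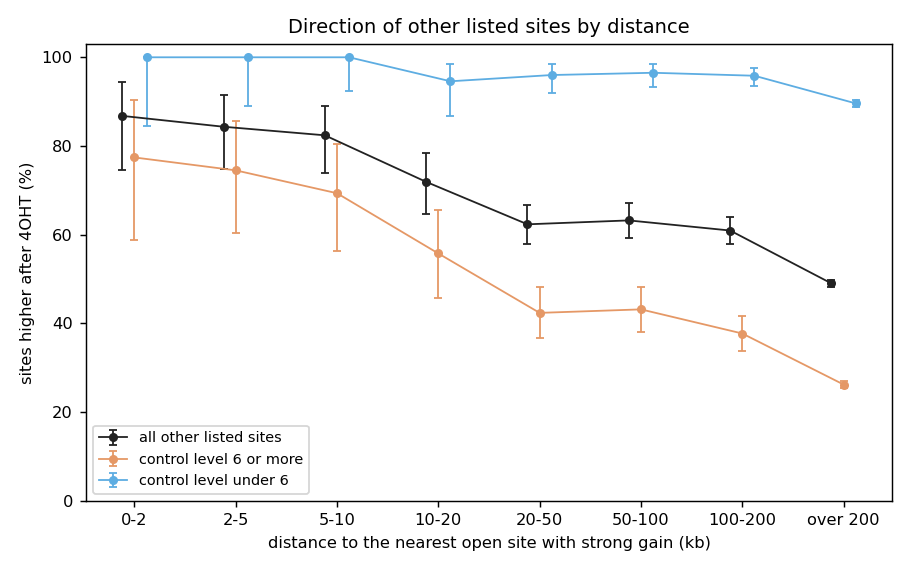
Share of listed sites outside the rule that were higher after 4OHT, in percent, by distance in kb to the nearest of the 569 sites, for all such sites (black) and split by control level (orange at 6 or more, blue under 6). Points carry exact 95% binomial intervals; the black share is 86.8% within 2 kb, lies between 60.9 and 63.2% from 20 to 200 kb and is 49.01% beyond.

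Exceptions stood close by as well. Within 5 kb of a site with strong gain, 20 listed sites were lower after 4OHT. In the authors' deposited table, the site near Fhl2 rose from 6.23 to 7.78 while another 936 bp away fell from 7.09 to 5.95. Near Thumpd3 the pair was 1130 bp apart (6.05 to 7.80 and 7.47 to 6.26, FDR of the lower site 1.38e-07). The distal Jun site had a lower neighbour 3391 bp away that fell from 8.61 to 7.63 (FDR 3.52e-09).

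By nearest protein-coding gene within 100 kb, 527 of the sites fell to 486 genes, 453 of them with 1 site, 26 with 2 and 7 with 3 or more, while 42 sites had no such gene. Those 7 were Spry4, Schip1, Baiap2, Ptprs, Phlda1, Bach2, a transcriptional repressor gene, and Ywhaz, which encodes a 14-3-3 protein. Nearness does not show that a site acts on the gene. The 486 genes had 1124 other listed sites, of which 732 (65.1%, 62.3 to 67.9) were higher, against 7732 of 14803 (52.2%) at genes without such a site. No other listed site was found at 125 of the genes. At 168 every other site was higher, at 66 every other site was lower and at 127 they were mixed. Ptprs had 10 other sites and Ywhaz 7, all of them higher, whereas 3 of the 10 others at Schip1 were higher and 7 lower.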

How the data were processed

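ATAC-seq was made from 9 libraries of mouse embryonic stem cells, 3 at each of 0, 1 and 2 h of 4OHT; the labels do not make clear that same-group libraries are separate cultures. Per the submitters' processing notes, Bowtie2, MACS2, bedtools and mm10 were used; no source used here gives further settings. For each changed site the authors deposited log2 mean normalized read levels of control and 4OHT, a log2 fold (control minus 4OHT), a p-value and an FDR, with no values per library, so the depth of each library is unknown. Levels over all libraries matched weights of 3 control to 6 4OHT libraries within 0.00986 (log2). The change was recomputed as the level after 4OHT minus control, rounded as in the table. The rule, comparison groups and 15 gene lists (222 of 229 genes found) were chosen with earlier results of these data known.

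Sites were placed by their centre against RefSeq genes (GRCm38.p6, the sequence of mm10) with Python 3.11.15, pandas 2.3.3 and scipy 1.17.1, and steps were tested on simulated data. The nearest gene is the protein-coding gene body nearest to the centre, within 100 kb for counts of genes, and the shortest if several hold it. Gene strand and starts came from promoter windows, which cover 79.9% of protein-coding genes and were not used for chromosome 18. Shares carry exact Clopper-Pearson 95% intervals, for counting error only. Named sites were those with the 15 largest changes, the 15 smallest p-values, the highest control levels, extreme widths, those at list genes and the genes with most sites; sites near the thresholds, neighbours that fell and promoter windows are named as stated. Alternatives varied the thresholds, the level used, the distances and the gene set.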

Additional observations from a re-analysis of the deposited data

How the results depend on the processing

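Of 46 alternative values, 29 stayed close to the reported ones and 17 moved; each of these changes which sites or distances are counted. The number of sites was 952 with a control level of at least 5.5, 334 at 6.5, 1062 with a lower change minimum, 311 with a higher one, and 2441 when the mean level over all libraries replaced the control level. With an FDR under 0.001 it fell from 569 to 457, a value counted among the 29 that stayed close. Median width was 590 bp at a control level of 5.5, 678.5 bp at 6.5 and 471 bp with the mean level. The share of sites within reach of another was 7.91% with the mean level, 2.81% within 5 kb and 11.8% within 50 kb. The share near a gene end was 4.22% within 500 bp, 19.7% within 2.5 kb, 4.39% for protein-coding ends and 4.60% for annotated starts; the last was chosen after seeing the data, as were width by mean level and gene-end shares by control level. The share of higher neighbours was 70.2% within 50 kb and 72.9% for those with a control level of at least 6, both above the matching share of all other sites. No paired analysis was possible because the table holds no values per library, and leaving out libraries was not possible for the same reason. Levels rounded to 2 decimals decide membership at the limits, where 16 sites stood at exactly 1.5, and sites past the FDR limit of 0.01 were not analysed here.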

Other observations

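MicroRNA hairpins of RefSeq lay within 5 kb of a few open sites with strong gain; they were chosen after their values were seen. In the authors' deposited table, a site at chr8:84211169-84211822 rose from 6.35 to 7.95 (FDR 2.47e-04), 2248 bp from the Mir24-2 hairpin, which shares a cluster with Mir23a and Mir27a. A site at chr2:174263095-174263561 rose from 6.89 to 8.76 (FDR 5.06e-11), 3486 bp from Mir296 and 3943 bp from Mir298. The site nearest to any hairpin was 321 bp from Mir6977 and rose from 6.28 to 7.96. Whether the microRNAs changed was not measured.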
